A study of Mus musculus with 4 samples.

Results

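The genes described here are 8 enzymes of prostaglandin and lipid mediator metabolism, Pla2g4a, Ptgs1, Ptgs2, Ptges, Ptgis, Hpgd, Alox5 and Alox15, chosen by gene symbol from the 19465 genes of a mouse probe panel. All 8 were found. They were measured by spatial transcriptomics (10x Visium) of fixed, paraffin-embedded tissue from 2 BALB/c mice, Mouse_627 and Mouse_628, each of which gave a primary (breast) tumour section and a lung section. In this assay pairs of gene-specific probes are captured on a grid of spots and counted as unique molecular identifiers (UMIs). Both mice had received 100000 cells of 4T1, a metastatic mammary carcinoma cell line of mouse, in the mammary fat pad at 8 weeks of age and were sacrificed after 28 days. There is 1 section per tissue and mouse, and no lung of a mouse without a tumour was analysed here. A spot covers several cells, so a level is that of a small region and not of a cell type.

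Prostanoid synthesis starts when a phospholipase frees arachidonic acid from membranes. Cyclooxygenases turn it into an unstable endoperoxide, from which terminal synthases make prostaglandin E2, prostacyclin or thromboxane, and the dehydrogenase encoded by Hpgd inactivates prostaglandins. Lipoxygenases use the same fatty acid to make leukotrienes and related mediators, a pathway best known from neutrophils, mast cells and macrophages. The lung is a classical site of prostaglandin breakdown and of prostacyclin synthesis, and cyclooxygenase-2 (Ptgs2) is a much studied enzyme of tumours.

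On mouse build mm10 (GRCm38, GENCODE vM21) Pla2g4a, which encodes the cytosolic phospholipase, lies at chr1:149829618-149961290 on the minus strand, and Ptgs2 lies at chr1:150100031-150108227 on the plus strand, with 138740 bases between them. Ptges (chr2:30889471-30929863, minus strand), Ptgs1 (chr2:36230426-36252272, plus strand) and Ptgis (chr2:167191805-167240604, minus strand) share chromosome 2. Alox5 (chr6:116410077-116461178, minus strand), Hpgd (chr8:56294585-56321043, plus strand) and Alox15 (chr11:70344152-70352031, minus strand) are on chromosomes of their own. A promoter window of GRCm38.p6 from RefSeq was found for 6 of the 8 genes, and not for Ptgis and Alox15. The windows end at the RefSeq starts, which for Ptges lies within the GENCODE gene given above and for Hpgd lies before its GENCODE start. The 250 bases before the RefSeq start are shown 5′ to 3′ for the gene with the largest fall from primary tumour to lung, the synthase that follows it in the pathway, and the gene with the largest rise. Capitals mark the letters TTGCGCAA, a C/EBP type motif, found on either strand.
Ptgs2, chr1:150099781-150100030, plus strand: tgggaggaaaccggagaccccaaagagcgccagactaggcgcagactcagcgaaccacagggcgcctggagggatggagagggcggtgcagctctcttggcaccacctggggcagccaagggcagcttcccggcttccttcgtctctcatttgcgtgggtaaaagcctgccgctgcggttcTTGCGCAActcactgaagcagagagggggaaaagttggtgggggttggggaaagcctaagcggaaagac
Ptges, chr2:30903298-30903547, minus strand: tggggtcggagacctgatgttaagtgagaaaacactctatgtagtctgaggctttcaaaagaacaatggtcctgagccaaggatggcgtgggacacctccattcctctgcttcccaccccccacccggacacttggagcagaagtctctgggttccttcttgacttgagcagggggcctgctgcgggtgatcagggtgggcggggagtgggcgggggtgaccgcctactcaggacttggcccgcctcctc
Hpgd, chr8:56294302-56294551, plus strand: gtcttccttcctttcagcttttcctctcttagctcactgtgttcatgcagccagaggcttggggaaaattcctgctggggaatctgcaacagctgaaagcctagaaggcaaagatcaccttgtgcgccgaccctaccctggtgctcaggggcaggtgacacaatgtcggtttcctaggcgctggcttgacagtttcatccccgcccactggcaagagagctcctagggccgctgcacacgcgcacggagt
The motif begins 69 bases before the Ptgs2 start, and 0.164% of the 32851 windows of this length in the table hold it. None of these 3 windows held, on either strand, the TATA box letters TATAAA (in 12.4% of all windows), the hypoxia response core ACGTG (16.6%), the AP-1 letters TGACTCA (4.46%) or the cyclic AMP response letters TGACGTCA (1.55%). These matches describe letters and not binding.

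Of 9445 spots under tissue, 9339 with over 200 genes were kept, 1697 to 2780 per section, and the sections held 10890154 to 30240176 UMIs. The median depth per spot was 2931 and 1820 UMIs in the primary tumours of mice Mouse_627 and Mouse_628 and 6555 and 9174.5 UMIs in their lungs. Olfactory and vomeronasal receptor genes, which these tissues should not use, gave a background level per gene. Their median was 0.591 CPM (the UMIs of a gene scaled to the library's total) in primary tumour Mouse_627, 6.61 CPM in primary tumour Mouse_628, and 0.180 and 0.132 CPM in the lungs. Primary tumour Mouse_628 therefore stood apart, and levels near 7 CPM there were not above background. Marker lists were chosen with earlier results of these data known, so their levels are no independent check of the labels. The alveolar list was at 13833 and 7808 CPM in the lungs against 27.5 and 73.7 CPM in the primary tumours. The 4T1 list was at 4746 and 5227 CPM in the primary tumours against 124 and 1268 CPM in the lungs. The 4T1 list was thus far higher in lung Mouse_628 than in lung Mouse_627. It holds Csf3, Hmga2, Plau, Mmp3, Mmp13, Inhba, Tnc and Lif, of which Mmp3 had the highest level in the primary tumours. Plau did not follow the tissues, at 304 and 243 CPM in the primary tumours and 34.3 and 304 CPM in the lungs. Tnc had 354 and 144 CPM against 22.4 and 132 CPM. The other genes of the list were higher in both primary tumours than in both lungs.

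The first question was how the 8 enzymes differ between the primary tumour and the lung. Ptgs2, Ptges and Pla2g4a, which together lead from membrane lipid to prostaglandin E2, were higher in both primary tumours than in both lungs. Ptgis, Hpgd, Alox5 and Alox15 were higher in both lungs, and so was Ptgs1 by a smaller margin. Of the 8 genes, 3 rose (Ptgis, Hpgd and Alox5) and 2 fell (Ptgs2 and Ptges) in lung against primary tumour by the quasi-likelihood test of edgeR, adjusted by Benjamini-Hochberg over 15267 genes. Over all these genes 6.31% were called higher and 1.15% lower. The CPM of the groups did not overlap for any of the 8 genes, and 59.1% of all genes tested did not overlap either. In such sums over a section a change in the number of cells of a type and a change in RNA per cell cannot be told apart.

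**Figure D1:**
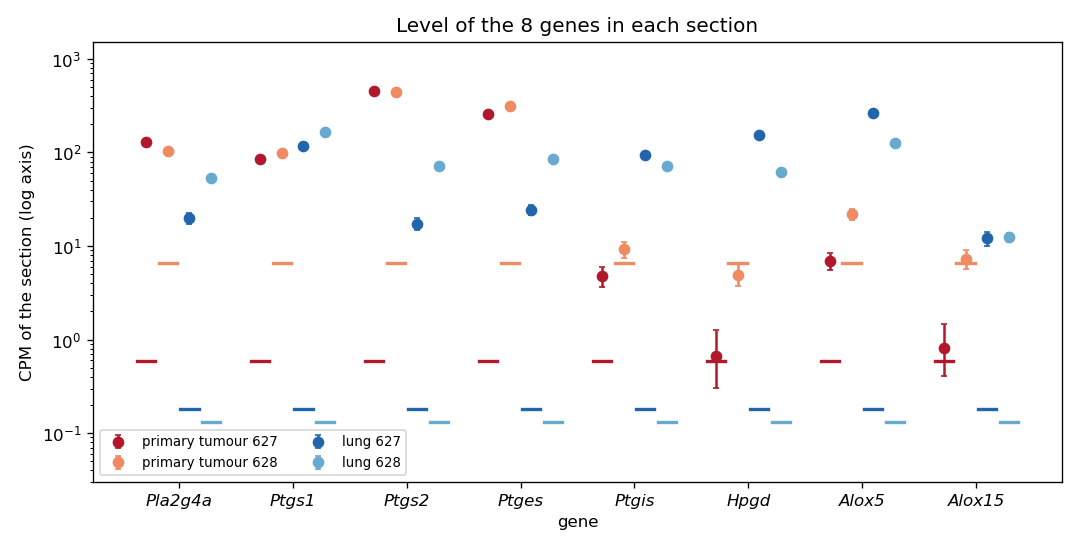
CPM of each gene (log axis) in the primary tumours and lungs of mice Mouse_627 and Mouse_628, with exact Poisson 95% intervals that cover counting error only, and horizontal bars at the median level of receptor genes in the same section. Ptgs2, Ptges and Pla2g4a are higher in the primary tumours, and Hpgd and Alox15 lie at the bars of both primary tumours.

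Ptgs2, the inducible cyclooxygenase, was at 450.1 and 444 CPM in the primary tumours of mice Mouse_627 and Mouse_628 and at 17.3 and 71.1 CPM in their lungs. The primary tumours were alike and both lungs were lower, by 3.12 ± 0.58 (SE, n = 2 per group) on the log2 scale (edgeR adjusted p = 0.0145). Spots with at least 1000 UMIs, 1604 of 2490 and 2316 of 2372 in the primary tumours and 1687 of 1697 and 2775 of 2780 in the lungs, were thinned to 1000 UMIs each. Of these thinned spots, 37.0% and 28.7% in the primary tumours and 1.58% and 5.05% in the lungs held a Ptgs2 UMI. Without thinning the shares of all kept spots were 61.5%, 52.7%, 9.72% and 36.0%, against a median of 0.321%, 2.99%, 0.118% and 0.144% for a receptor gene.

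Ptges encodes the microsomal prostaglandin E synthase that acts after Ptgs2. Its level was 256 and 310.1 CPM in the primary tumours and 24.1 and 84.8 CPM in the lungs. Both lungs were lower than both primary tumours, and the fall of 2.15 ± 0.51 on the log2 scale passed the test (adjusted p = 0.0356). Ptges lost its call when only spots with at least 1000 UMIs were summed (adjusted p = 0.0616) and without lung Mouse_627 (adjusted p = 0.265). Library sizes in place of TMM scaling were a setting chosen after seeing the data. With them Ptgs2 and Ptges lost their calls (adjusted p = 0.0569 and 0.0895), at log2 changes of -3.35 and -2.39. Over all the alternatives Ptges stayed lower in lung, with log2 changes of -2.91 to -1.40.

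Pla2g4a followed the same order, with 128 and 105 CPM in the primary tumours and 19.7 and 53.4 CPM in the lungs. Its log2 change of -1.44 ± 0.44 did not pass the test (adjusted p = 0.0885), but it passed with the mouse as a block (-1.53, adjusted p = 0.00461). With that block 3 genes rose and 3 fell, where 9.17% and 2.73% of all genes were called higher and lower.

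The 3 genes lower in lung moved with the 4T1 list. For each 1000 UMIs on that list, Ptgs2 had 94.8 and 85.0 UMIs in the primary tumours and 139 and 56.1 UMIs in the lungs of mice Mouse_627 and Mouse_628. The corresponding values of Ptges were 54.0, 59.3, 194 and 66.9 UMIs. Pla2g4a had 27.0, 20.05, 159 and 42.1 UMIs, so that per unit of this list Ptges and Pla2g4a were higher in both lungs than in both primary tumours. The list held only 1379 UMIs in lung Mouse_627, against 38347 in lung Mouse_628 and 64221 and 56918 in the primary tumours. In lung spots rich in the alveolar list Ptges was still at 24.2 and 50.2 CPM and Pla2g4a at 18.6 and 29.5 CPM. These ratios are therefore not levels per tumour cell. The part of tumour cell number in the changes was not tested.

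Ptgs1, the constitutive cyclooxygenase, was the flattest of the 8 genes. It had 86.1 and 98.8 CPM in the primary tumours and 118 and 165 CPM in the lungs. The groups did not overlap, yet the change of 0.90 ± 0.34 on the log2 scale did not pass the test (adjusted p = 0.161, and 0.175 with the mouse as a block).

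Ptgis, the prostacyclin synthase, was at 4.73 and 9.18 CPM in the primary tumours and at 94.7 and 72.1 CPM in the lungs. It rose by 3.92 ± 0.47 on the log2 scale (adjusted p = 0.00419). In primary tumour Mouse_628 its level was 1.39 times the receptor median, so it was hardly above background there, whereas it was 8.00 times the median in primary tumour Mouse_627. The smooth muscle list moved with it, at 37.0 and 74.6 CPM in the primary tumours and 573 and 356 CPM in the lungs, although in primary tumour Mouse_628 Myh11, Cnn1 and Actg2 of its 6 genes, at 3.40, 6.80 and 7.25 CPM, were at or near the receptor median. For each 1000 UMIs on this list Ptgis had 128 and 123 UMIs in the primary tumours and 165 and 202 UMIs in the lungs, and the part of smooth muscle in the rise was not tested.

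Hpgd, which starts prostaglandin breakdown, had the largest change. Its level was 0.665 and 4.96 CPM in the primary tumours, from 9 and 54 UMIs, and 155 and 61.5 CPM in the lungs. These primary tumour levels were 1.13 and 0.750 times the receptor median, so the gene was not detectable above background there. The rise of 5.68 ± 0.89 on the log2 scale passed the test (adjusted p = 0.00836), and its size rests on that background. For each 1000 UMIs on the endothelial list Hpgd had 83.1 and 67.5 UMIs in the lungs and 2.91 and 30.3 UMIs in the primary tumours. For each 1000 UMIs on the alveolar list the order was the other way, with 11.2 and 7.88 UMIs in the lungs and 24.2 and 67.2 UMIs in the primary tumours. The primary tumour ratios rest on the same 9 and 54 UMIs, which were not above background. In primary tumour Mouse_628 the alveolar list was near background too, with Sftpc, Lamp3 and Sftpd at 7.44, 7.07 and 6.24 CPM. The order on that list therefore cannot be read as a difference between the tissues.

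Alox5 encodes the lipoxygenase that opens leukotriene synthesis. It was at 6.87 and 21.9 CPM in the primary tumours and at 267 and 126 CPM in the lungs, and rose by 4.16 ± 0.65 on the log2 scale (adjusted p = 0.00865). The neutrophil list moved with it, at 2502 and 11000.3 CPM in the primary tumours and 77488 and 31709 CPM in the lungs, with UMIs of all 7 of its genes in every section, although Ly6g, at 13.6 CPM in primary tumour Mouse_628, was below the 95th percentile of the receptor genes there. For each 1000 UMIs on this list Alox5 had 2.75 and 1.99 UMIs in the primary tumours and 3.45 and 3.98 UMIs in the lungs. The ratio was higher in both lungs than in both primary tumours. The part of neutrophil number in the rise was not tested.

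Alox15, another lipoxygenase, was near the receptor background in the primary tumours. It had 0.813 and 7.25 CPM in the primary tumours, 1.38 and 1.10 times the receptor median, and 12.05 and 12.3 CPM in the lungs, from 134 and 373 UMIs. The log2 change of 1.94 ± 0.94 did not pass the test (adjusted p = 0.252), and over the alternatives it ranged from 1.36, without primary tumour Mouse_627, to 4.06, without primary tumour Mouse_628. It passed in 2 of the 12 alternatives, with the mouse numbers crossed (adjusted p = 0.00586) and without primary tumour Mouse_628. That last fit has 1 primary tumour section, which is assumed to vary like the lungs. Both lungs were nearly equal, but only 1.40% and 1.45% of their spots held a UMI after thinning.

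**Figure D2:**
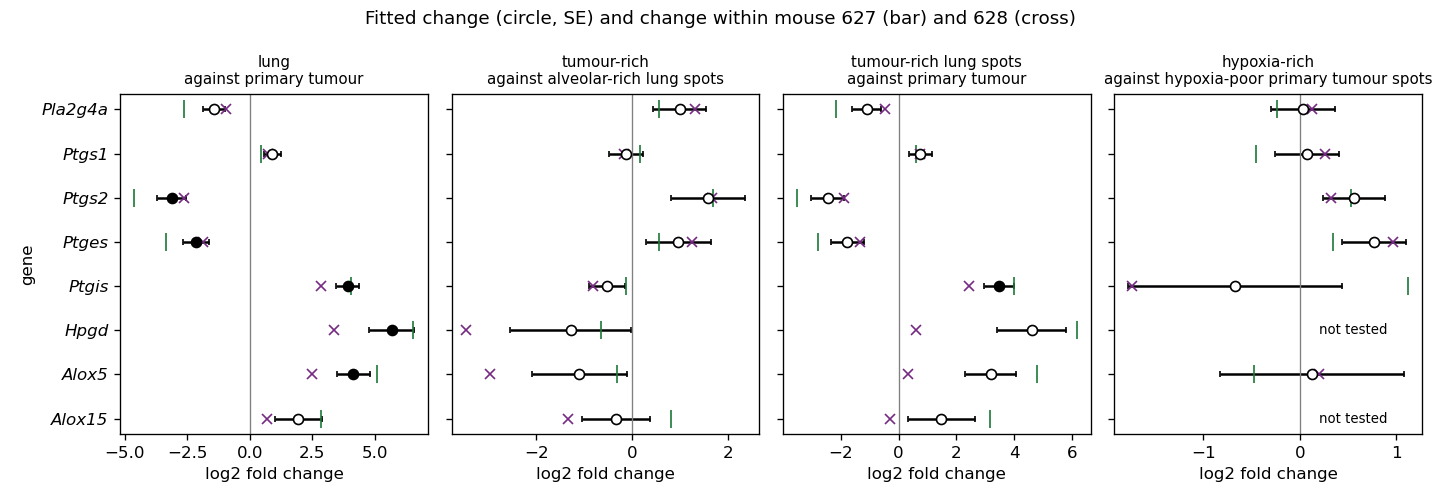
Fitted log2 fold changes with their standard errors (circles, filled where the adjusted p is under 0.05) in the 4 comparisons, with the change within Mouse_627 (bars) and Mouse_628 (crosses) as the log2 ratio of CPM + 1. In lung against primary tumour both mice moved the same way for all 8 genes, and in both comparisons of tumour-rich lung spots Hpgd and Alox5 differed widely between the mice.

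A list of 69 further pathway genes, of which 62 are in the panel, was examined beside the 8 enzymes. In lung against primary tumour 54 entries of the list were tested, 7 were called higher and 0 lower, and the median log2 change was 0.65 against -0.0046 over all genes. At an unadjusted p under 0.05 there were 15 of the 54, and 3536 of the 15267 genes. With the mouse as a block 8 rose, 1 of the 2 Dpep2 entries being added (adjusted p = 0.0420, and 0.186 for the other entry). Dpep2 is named after its values were seen. The largest rises with the same direction in both mice were those of Cbr2, a carbonyl reductase of the lung that acts on prostaglandins, Dpep1 and Ggt5, which process cysteinyl leukotrienes, and Alox5ap, the partner protein of Alox5. Cbr2 had 3.03 and 6.43 CPM in the primary tumours and 676 and 216 CPM in the lungs (log2 change 6.95, adjusted p = 0.00404). Alox5ap had 144 and 294 CPM in the primary tumours and 2873 and 1606 CPM in the lungs (3.71, adjusted p = 0.0103). Per 1000 neutrophil list UMIs Alox5ap had 57.7, 26.7, 37.1 and 50.7 UMIs in primary tumours Mouse_627 and Mouse_628 and lungs Mouse_627 and Mouse_628. The log2 changes of Dpep1 and Ggt5 were 3.82 and 3.71 (adjusted p = 0.0352 and 0.00754). The remaining 3 genes that rose, named after their values were seen, are the receptors Ltb4r1 (leukotriene B4), Fpr2 and Cmklr1, with log2 changes of 3.23, 3.16 and 2.47.

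Among genes of the list that did not pass, the lowest log2 changes with the same direction in both mice were those of the phospholipases Pla2g2f (-3.53) and Pla2g4e (-2.74), the prostaglandin D synthase Hpgds (-2.67) and the leukotriene receptor Cysltr2 (-2.20), with adjusted p of 0.223 to 0.417. All 4 had their highest level in primary tumour Mouse_628, at 6.15 to 12.4 CPM, where the receptor median was 6.61 CPM. Of the receptors of prostaglandin E2, Ptger2 had 3.55 and 6.06 CPM in the primary tumours and 24.5 and 11.5 CPM in the lungs (2.27, adjusted p = 0.0697), while Ptger1, Ptger3 and Ptger4 had log2 changes of 0.76, 1.93 and -0.32 (adjusted p = 0.786, 0.318 and 0.837). Slco2a1, which carries prostaglandins into cells for breakdown, overlapped between the tissues, with 745 and 550.2 CPM in the primary tumours and 629 and 519 CPM in the lungs (0.13 ± 0.45, adjusted p = 0.905). Lta4h, Ltc4s and Tbxas1, which make leukotriene B4, leukotriene C4 and thromboxane, had log2 changes of 0.69, 2.58 and 1.04 (adjusted p = 0.351, 0.109 and 0.246). Ptgds held 0 to 2 UMIs per section and was not tested.

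Where the enzymes lie within the sections was described next. Spots in the top 10% by their share of UMIs on a marker list were set against the other spots of the same section, with no test, since spots are not replicates. In lungs Mouse_627 and Mouse_628 Ptgs2 was 4.13 and 2.16 times higher in spots rich in the 4T1 list, and 2.25 and 2.37 times higher in those rich in a list of 4 mesothelial markers. That list was nearly all Msln, at 25.7 of 28.4 CPM and 285 of 291 CPM in lungs Mouse_627 and Mouse_628, with Upk3b, Wt1 and Lrrn4 at 0.18 to 2.98 CPM, and Msln was also at 63.3 and 128 CPM in the primary tumours, so these spots are rich in Msln and were not shown to be mesothelial. It was at 0.45 and 0.21 of the other spots where neutrophil markers were richest. Ptges was 2.30 and 1.70 times higher, and Pla2g4a 1.46 and 1.70 times higher, in spots rich in the 4T1 list. Pla2g4a was also 2.43 and 1.42 times higher in macrophage-rich spots.

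Hpgd and Alox5 had the opposite layout. In lung Mouse_628 Hpgd was 2.94 times higher in endothelial-rich spots and at 0.080 of the other spots in 4T1-rich spots, while in lung Mouse_627 these ratios were 1.27 and 0.62. Alox5 was 1.46 and 3.09 times higher in the neutrophil-rich spots of lungs Mouse_627 and Mouse_628 and 3.33 and 4.55 times higher in those of the primary tumours. Ptgis was higher where smooth muscle (2.18 and 1.61 times) and fibroblast markers (2.12 and 1.62 times) were rich. In lung Mouse_628 a single spot held 26 Ptgis UMIs of its 11027. Ptgs1 had ratios between 0.56 and 1.29 over all 20 lists in both lungs.

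**Figure D3:**
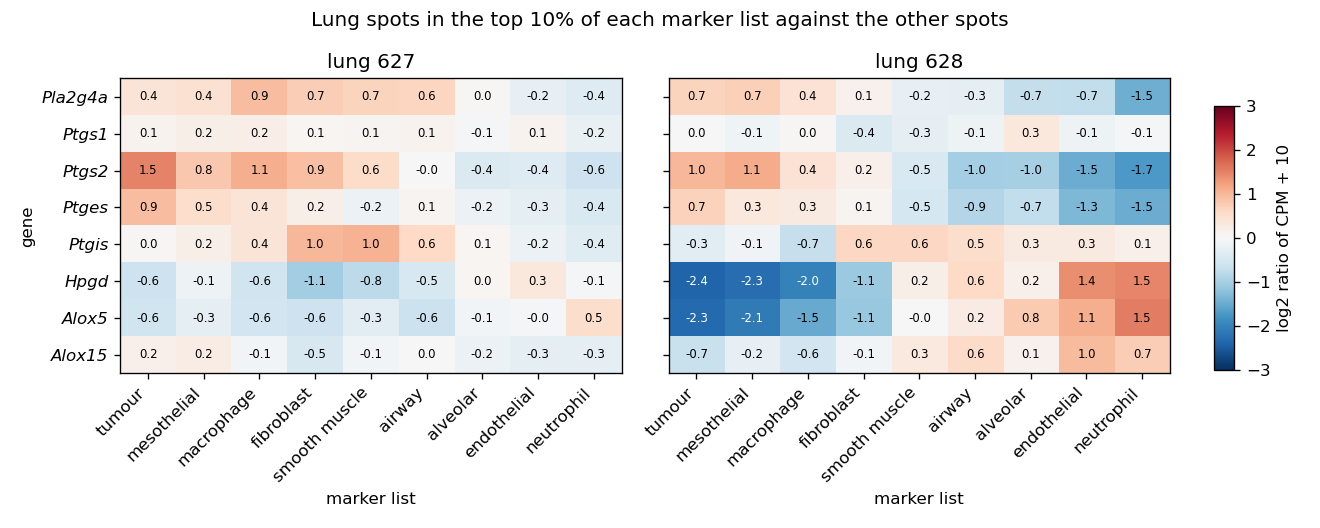
Level of each gene in lung spots in the top 10% by the share of UMIs on each of 9 marker lists, as the log2 ratio of CPM + 10 to the other spots of the section. Ptgs2 and Ptges are positive in the 4T1 column of both lungs, where Hpgd and Alox5 are negative.

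The tiles of each section, blocks of 4 rows by 8 columns of the grid that hold 16 spots, were used to compare the layouts of the genes. In lung Mouse_628 (177 tiles) Hpgd and Alox5 had a Pearson correlation of 0.82, and Ptgs2 had -0.63 with Hpgd and -0.62 with Alox5 and 0.57 with Pla2g4a. In lung Mouse_627 (108 tiles) the same pairs had 0.22, -0.16, -0.30 and 0.15. These values describe tiles of 1 library each, which share depth and tissue, and Ptgs2 had only 192 UMIs in lung Mouse_627. The contrast between Ptgs2 and Alox5 was not seen in the primary tumours, where their correlations were 0.12 and 0.33 at 93 and 238 Alox5 UMIs. There (160 and 152 tiles) Ptges had 0.34 and 0.35 with Ptgs2, 0.37 and 0.32 with Pla2g4a and 0.41 and 0.26 with Ptgs1.

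**Figure D4:**
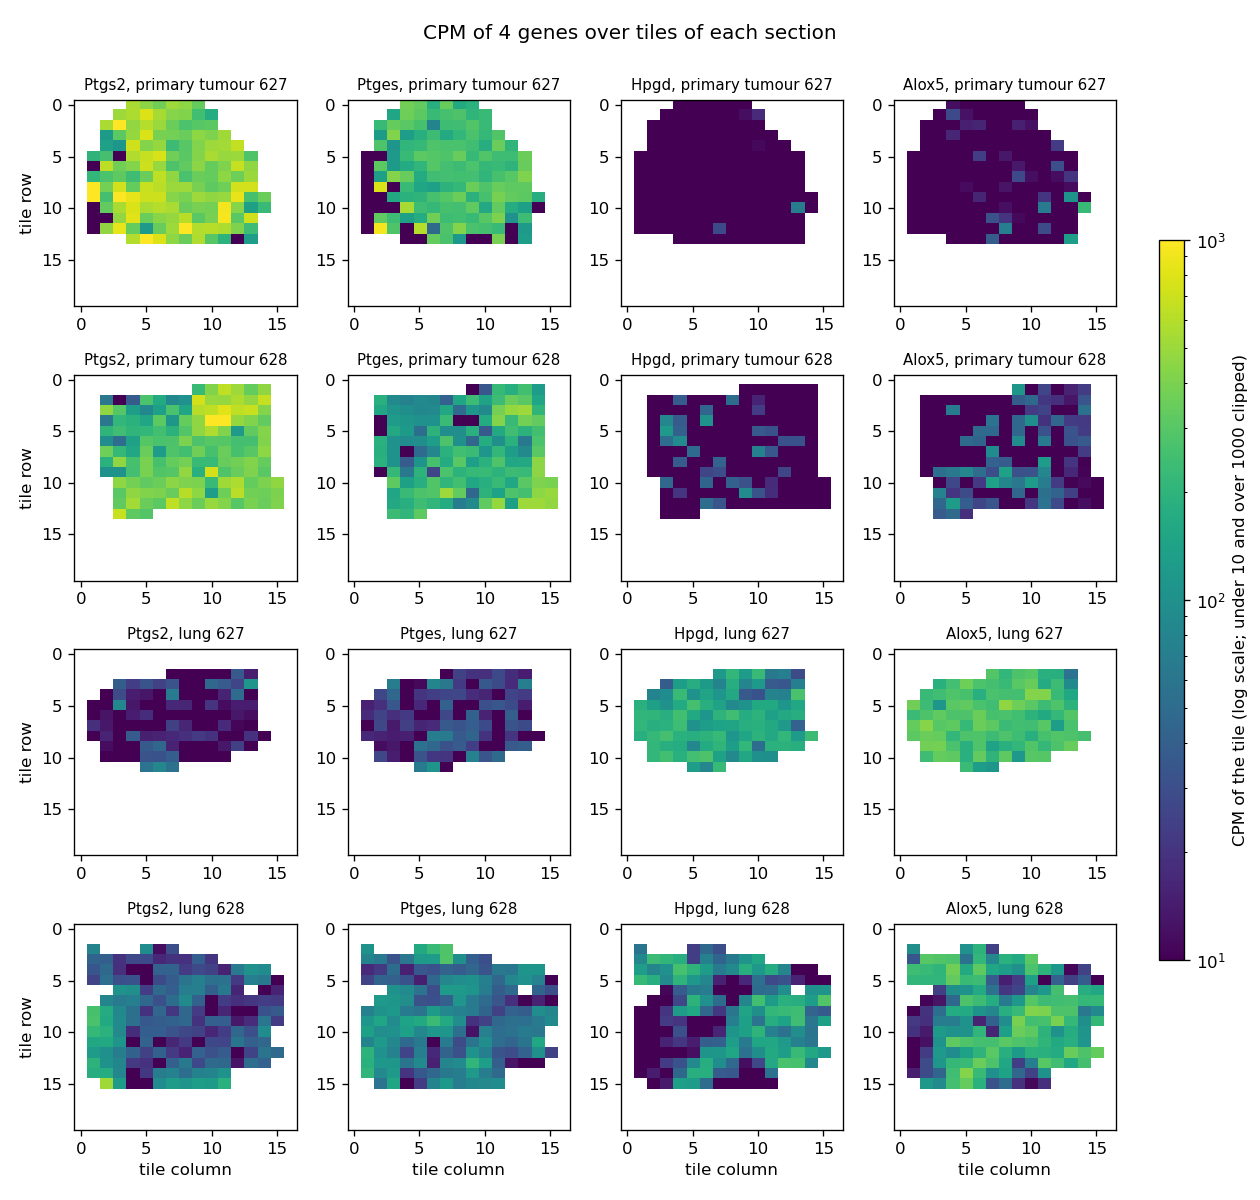
CPM of Ptgs2, Ptges, Hpgd and Alox5 over tiles with at least 8 kept spots (log colour scale, clipped at 10 and 1000) in the 4 sections. In lung Mouse_628 the lower left edge is high in Ptgs2 and low in Hpgd and Alox5, while in lung Mouse_627 Hpgd and Alox5 cover nearly the whole section.

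**Figure D5:**
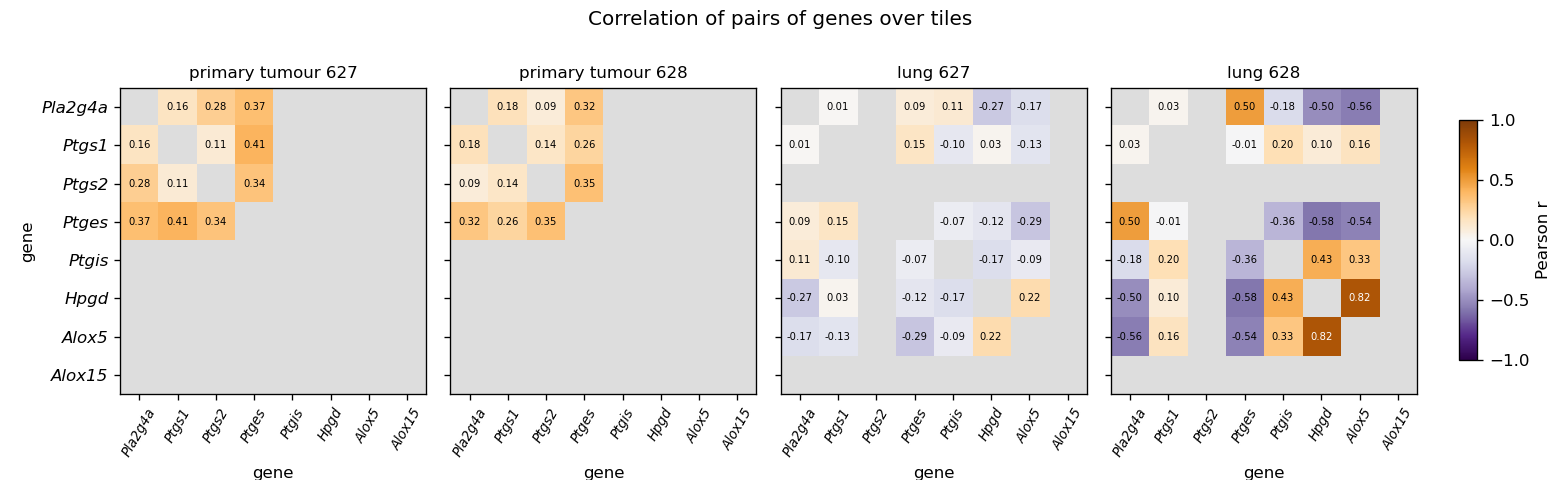
Pearson correlation over tiles of log2(CPM + 10) for pairs of genes with at least 200 UMIs in both sections of a tissue (others grey). Hpgd with Alox5 reaches 0.82 in lung Mouse_628 and 0.22 in lung Mouse_627.

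Among genes with at least 200 UMIs in both sections of a tissue, those most like each enzyme over tiles were ranked by the lower of the correlations of both mice. In lung the genes most like Hpgd were Adgrf5, Epas1 and Ramp2, all known from lung endothelium, at 0.71, 0.70 and 0.70. Those most like Alox5 were Lcp1, Ifitm6 and S100a8, known from myeloid cells, at 0.75, 0.74 and 0.74. Pla2g4a in lung was most like Hspa9, a mitochondrial chaperone, followed by Calr and Nedd4, at 0.57, 0.49 and 0.46. In the primary tumour Ptges was most like Ywhag, Bcap31 and Fam91a1, at 0.52, 0.49 and 0.49. For the remaining genes the highest value was under 0.5, at 0.28 for Ptgs1, 0.49 for Ptges and 0.43 for Ptgis in lung and at 0.40 for Ptgs1, 0.47 for Ptgs2 and 0.37 for Pla2g4a in the primary tumour. These values depend on tile size. In tiles of 2 rows by 4 columns they fell to 0.40 for Hpgd with Adgrf5, 0.50 for Alox5 with Lcp1, 0.18 for Pla2g4a with Hspa9 and 0.21 for Ptges with Ywhag.

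The next comparison was between regions of the lung. Tumour-rich spots, the top quartile of the 4T1 list without spots that were also alveolar-rich, numbered 340 and 682 in lungs Mouse_627 and Mouse_628, and the alveolar-rich spots as many. The classes are ranges of a score. Tumour-rich spots of lung Mouse_627 held only 449 CPM of the 4T1 list against 2288 CPM in lung Mouse_628, and still had 59729 CPM of neutrophil markers against 6407 CPM. Ptgs2 was higher in tumour-rich spots in both mice, at 38.5 and 118 CPM against 11.2 and 36.5 CPM. Ptges had 36.2 and 122 CPM against 24.2 and 50.2 CPM. Pla2g4a had 28.0 and 75.6 CPM against 18.6 and 29.5 CPM, again higher in both mice.

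Hpgd was lower in tumour-rich spots, with 117 and 8.07 CPM against 185 and 99.9 CPM, and the gap was wide only in Mouse_628. Alox5 had 216 and 27.3 CPM against 269 and 222 CPM. The neutrophil list moved with it, at 59729 and 6407 CPM against 75800 and 54838 CPM, and its part in the difference was not tested. The log2 changes were 1.59 ± 0.78 for Ptgs2, 0.97 ± 0.68 for Ptges, 1.00 ± 0.56 for Pla2g4a, -1.28 ± 1.26 for Hpgd and -1.10 ± 1.00 for Alox5 (n = 2 per group, edgeR adjusted p = 0.793 for each). Ptgis, Ptgs1 and Alox15 had -0.52, -0.13 and -0.34. These fits ignored the pairing by mouse, so their standard errors hold the spread between mice. With the mouse as a block Ptgs2 had 1.62 ± 0.25, Ptges 0.86 ± 0.28 and Pla2g4a 0.92 ± 0.29. Hpgd then had -2.21 ± 0.72 and Alox5 -1.77 ± 0.67 (edgeR adjusted p = 0.134 to 0.215 for these 5 genes). The log2 ratio of CPM + 1 for Ptgs2 was 1.69 in Mouse_627 and 1.67 in Mouse_628. Over the alternatives Ptgs2 ranged from 0.60 to 2.64 and Pla2g4a from 0.15 to 1.45. None of the 8 genes was called, as for 0% of all 12364 genes, without or with the mouse as a block (0%). At an unadjusted p under 0.05 edgeR had 86 genes and 2663 with the block, DESeq2 had 313, and of the 8 enzymes 0 and, with the block, 5 were under it. Without the tumour-rich spots of lung Mouse_627 edgeR called 1715 of 13137 genes, 390 higher and 1325 lower, with Ptgs2 and Pla2g4a among the higher and Hpgd and Alox5 among the lower. That fit has 1 tumour-rich sum, which is assumed to vary like the alveolar-rich sums. Hpgd was then at -4.32 and Alox5 at -3.35, and without the tumour-rich spots of Mouse_628 they were at -0.34 and -0.25.

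In the pathway list 42 entries were tested here and 0 were called, with a median log2 change of -0.34 against 0.052 over all genes. Among those with the same direction in both mice the largest rises were 1.82 for Pla2g4c, 0.81 for Pla2g6, 0.69 for Ltc4s and 0.49 for Plaat3, and the largest falls were -1.29 for Dpep1, -1.26 for Pla2g1b, -1.15 for Alox12 and -1.15 for Ggt5 (adjusted p = 0.793 for each). Among the genes named in every comparison, Alox5ap had -1.11, Slco2a1 -0.29, Lta4h -0.23 and Tbxas1 -0.09, none of them called.

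Tumour-rich lung spots were then set against the primary tumour, to compare the sites with less lung tissue in the sum. The alveolar list was still at 11166 and 2897 CPM in these spots of Mouse_627 and Mouse_628, against 13833 and 7808 CPM in the whole lungs and 27.5 and 73.7 CPM in the primary tumours, so that lung tissue was little reduced in Mouse_627. Ptgis was the 1 gene of the 8 that rose, from 4.73 and 9.18 CPM in the primary tumours to 90.3 and 54.3 CPM (3.46 ± 0.52, adjusted p = 0.0385), where 0.152% of 15176 genes were called higher and 0.0527% lower. This call was lost with spots of at least 1000 UMIs (adjusted p = 0.127) and with the top 10% of spots (0.121). It was also lost with library sizes alone (adjusted p = 0.146) and without primary tumour Mouse_627. The log2 change of Ptgis stayed between 3.22 and 3.97 over the 13 alternatives. Ptgs2 remained lower in tumour-rich lung spots, at 38.5 and 118 CPM against 450.1 and 444 CPM. Its log2 change of -2.45 ± 0.57 did not pass the test (adjusted p = 0.125). Over the alternatives it ranged from -3.35 to -1.70 and passed in 5 of 13. With the mouse as a block 1 gene fell, Ptgs2 (-2.64, adjusted p = 0.0124), and 3 rose, Ptgis, Hpgd (3.94, adjusted p = 0.000379) and Alox5 (2.70, adjusted p = 0.00997), with 1.84% of all genes called higher and 0.619% lower.

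Without the block Hpgd and Alox5 had log2 changes of 4.597 ± 1.20 and 3.19 ± 0.88 that did not pass the test (adjusted p = 0.165 and 0.179). Over the alternatives Hpgd ranged from 1.84, without the tumour-rich spots of Mouse_627, to 6.59, without primary tumour Mouse_628, and Alox5 from 1.22 to 4.21 on leaving out the same sums. The higher level of Hpgd and Alox5 came mostly from Mouse_627. Within Mouse_627 and Mouse_628 the log2 ratios of CPM + 1 were 6.15 and 0.61 for Hpgd and 4.78 and 0.31 for Alox5. The p-values with the block do not reflect this difference between the mice. Alox5 was at 216 CPM in the tumour-rich spots of lung Mouse_627 and at 27.3 CPM in those of lung Mouse_628, close to the 21.9 CPM of primary tumour Mouse_628. The neutrophil list was at 59729 and 6407 CPM in these spots against 2502 and 11000.3 CPM in the primary tumours. Its part in the change of Alox5 was not tested. Hpgd was at 117 and 8.07 CPM in the tumour-rich spots. The 4T1 list reached 449 and 2288 CPM in these spots against 4746 and 5227 CPM in the primary tumours, so neither lung sum matched the primary tumour in this list, and the part of this difference in the changes was not tested. Ptges, Pla2g4a, Ptgs1 and Alox15 had log2 changes of -1.77, -1.10, 0.75 and 1.47 (adjusted p = 0.246, 0.422, 0.507 and 0.719). Of 53 entries of the pathway list 0 were called and 9 had an unadjusted p under 0.05, as had 1792 of the 15176 genes. With the block 3 rose, Cbr2, Cmklr1 and Ggt5 (4.95, 2.13 and 2.42). The largest rises with 1 direction in both mice were those of Cbr2, Ltc4s, Alox5ap and Ggt5 (6.14, 2.96, 2.70 and 2.65), and the largest falls those of Pla2g2f, Pla2g4e, Hpgds and Cysltr2 (-3.75, -3.31, -2.87 and -2.47). Ptger2, Tbxas1, Lta4h and Slco2a1 had 1.77, 0.81, 0.32 and -0.19, none of them called.

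Within the primary tumour, spots in the top quartile of a list of hypoxia genes were compared with those in the bottom quartile. Ptges was higher in hypoxia-rich spots of both mice, at 302 and 367 CPM against 237 and 187 CPM. Ptgs2 was higher as well, at 529 and 414 CPM against 365 and 331 CPM. The 4T1 list went the same way, at 5025 and 5523 CPM against 4361 and 3161 CPM, and so did depth, with a median of 1888 and 2452 UMIs per spot against 659.5 and 1434 UMIs. Of the hypoxia-poor spots, 223 of 622 and 42 of 593 had 0 UMIs on the hypoxia list. The part of tumour cells and depth in these differences was not tested. Pla2g4a was at 109 and 98.4 CPM against 128 and 89.7 CPM, with opposite directions in the mice, and Ptgs1 at 69.1 and 116 CPM against 95.1 and 96.3 CPM, also with opposite directions. The log2 changes were 0.77 ± 0.33 for Ptges, 0.57 ± 0.33 for Ptgs2, 0.04 ± 0.33 for Pla2g4a and 0.08 ± 0.33 for Ptgs1 (n = 2 per group, edgeR adjusted p = 0.963 to 0.980). Over all genes the median was -0.18. Alox5 and Ptgis, at 5.06 to 14.6 CPM and 3.13 to 23.7 CPM, had 0.13 ± 0.96 and -0.67 ± 1.11, and Hpgd and Alox15 had too few UMIs to be tested.

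None of the 6 enzymes tested was called, as for 0% of 14327 genes, while 217 had an unadjusted p under 0.05 and DESeq2 called 3. With the mouse as a block 0.53% of genes were called and again none of the 6. Ptges then had 0.79 ± 0.33 and Ptgs2 0.56 ± 0.35 (edgeR adjusted p = 0.489 and 0.903). Without the hypoxia-poor spots of Mouse_627 edgeR called 4571 of 18613 genes, 4352 of them higher and 219 lower, and Ptges, Ptgs2, Pla2g4a and Ptgs1 were among the higher ones (log2 changes 1.46, 1.12, 0.82 and 0.58). That fit has 1 hypoxia-poor sum, which is assumed to vary like the hypoxia-rich sums. The receptor background per gene was 15.6 CPM in hypoxia-poor spots of Mouse_628 against 3.84 CPM in hypoxia-rich spots, and Alox5 and Ptgis were at 12.6 and 23.7 CPM in those hypoxia-poor spots, at or near this background. Of 42 entries of the pathway list 0 were called. Those with the same direction in both mice and the largest changes were Pla2g15, Alox5ap, Lta4h and Zadh2 (0.46, 0.31, 0.28 and 0.15), and Hpgds, Alox12b, Dpep1 and Cbr2 (-1.76, -1.71, -1.39 and -1.30), with adjusted p of 0.963. These 4 genes were at 0.972 to 1.88 times the receptor median in the whole primary tumour section of Mouse_628. The receptor background there was higher in hypoxia-poor spots, as they were. In Mouse_627 the background went the other way, at 0.391 CPM in hypoxia-poor against 0.843 CPM in hypoxia-rich spots. These 4 genes went the same way in both mice, and the part of background in their falls was not tested. Slco2a1 and Tbxas1 had 0.31 and -0.67.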

How the data were processed

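Visium libraries of 4 sections (primary tumour and lung of 2 mice) were analysed. Per the labels and file headers, the deposited values are UMI counts, not normalized, for every gene and spot, which the authors made with Space Ranger 2.0.0 on mm10. Spots with over 200 genes were kept and counts were summed per section or spot class. CPM was computed from these sums. Spot positions served for tiles and, in an alternative, for a score over adjacent spots. Counting intervals are exact Poisson 95% intervals and cover counting error only. Sections share 1458 to 2094 spot barcodes in pairs because the barcode grid is fixed.

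Sums were tested in R 4.3.3 with edgeR 4.0.16 (TMM, filterByExpr, quasi-likelihood test, two-sided, Benjamini-Hochberg over all genes tested, threshold 0.05), and a standard error is the log2 change divided by the square root of F. DESeq2 1.42.0 was an alternative. Each group has 2 mice, so p-values of the fits without the block rest on the spread between 2 animals, moderated over genes. With the mouse as a block the p-values equal normal tails, except in tumour-rich against alveolar-rich lung spots. Such p-values rest on a spread pooled over genes and do not measure how far the mice differ for a gene. An exact permutation of 2 against 2 cannot go below 0.333. The mouse pairs the sums, since both tissues come from 1 animal. Deviations of the same mouse had correlations of -0.308, 0.732, -0.345 and 0.848 in the 4 comparisons in the order reported. The tests were checked on simulated counts, where the fits without the block missed most of the changed genes, so that a gene not called may still differ. With the block more were recovered within lung and within primary tumour, and a few unchanged genes were called. Each fit was checked on counts drawn with its own dispersions and without a difference between mice. The recoveries therefore do not show that the block gains power.

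Members, marker lists and the pathway list were chosen with earlier results of these data known. Besides the 8 members, fixed receptors and synthases were named, the 4 largest rises and falls of the pathway list with 1 direction in both mice, and the 3 genes most like each member over tiles where the highest correlation reached 0.5. Marker-rich spots are ranges of a score. Levels are compared between samples and not between genes, because probes differ. Promoter sequences are from RefSeq (GRCm38.p6). Python 3.11.15, numpy 2.4.6, scipy 1.17.1 and pandas 2.3.3 were used. Leaving out sections, other filters, scalings and classes were the alternatives, of which library sizes alone and crossed mouse numbers were chosen after seeing the data.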

Additional observations from a re-analysis of the deposited data

Results flagged for a closer look

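Ptgs2 was set apart by opposite directions in the tissues. In macrophage-rich spots, the top 10% of spots by the macrophage list, it was 2.87 and 1.41 times the level of the other spots in lungs Mouse_627 and Mouse_628, whereas it was at 0.798 and 0.755 of the other spots in primary tumours Mouse_627 and Mouse_628. All 4 sections went with their tissue. In the lungs the macrophage list was itself higher in tumour-rich than in alveolar-rich spots, at 692 and 1174 CPM against 465 and 730.1 CPM, where Ptgs2 was higher too. The difference between the tissues was not tested.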

How the results depend on the processing

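In lung against primary tumour (1139 genes called) the direction of all 8 enzymes held under the 12 alternatives run. The log2 change ranged from -4.06 (without lung Mouse_628) to -2.33 (without lung Mouse_627) for Ptgs2, from 4.88 (without lung Mouse_627) to 7.55 (without primary tumour Mouse_628) for Hpgd and from 3.53 to 5.04 on leaving out the same sections as Hpgd for Alox5. The count was 3827 with DESeq2 (1707 higher and 2120 lower, against 963 and 176), 2022 with no filter, 1817 with the mouse as a replicate block, 681 with spots of at least 1000 UMIs and 883 to 6604 on leaving out 1 section, of which 2519 came without lung Mouse_628 and 6604 (1387 higher and 5217 lower) without primary tumour Mouse_627. Library sizes alone, chosen after seeing the data, gave 328 and moved the median of all genes to -0.31. Pla2g4a passed in 4 alternatives, with no filter (adjusted p = 0.0452), with the block (0.00461), with crossed mouse numbers (0.00393) and without lung Mouse_628. That last fit has 1 lung section, which is assumed to vary like the primary tumours. Over the alternatives the log2 change of Pla2g4a ranged from -1.94 to -0.81.

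For tumour-rich against alveolar-rich lung spots the count was 0 to 1715 on leaving out 1 sum. Directions turned, on leaving out 1 sum, for Ptges (-0.11 to 1.54, with -0.11 without tumour-rich spots of Mouse_628), Alox15 (-1.29 to 0.25, with 0.25 without the same spots and 0.19 without alveolar-rich spots of Mouse_628) and Ptgs1 (-0.41 to 0.22, with 0.22 without alveolar-rich spots of Mouse_628). For tumour-rich lung spots against primary tumour (31 called) DESeq2 size factors gave 109, DESeq2 689, no filter 703, the replicate block 373, spots of at least 1000 UMIs 4, the top 10% of spots 3, library sizes alone 3 and leaving out 1 sum 180 to 1255. For hypoxia-rich against hypoxia-poor spots (0 called) DESeq2 gave 3, no filter 2, the replicate block 76, the top 10% of spots 7 and leaving out 1 sum 0 to 4571. There Alox5 reversed to -0.0070 with the replicate block, to -0.65 without hypoxia-rich spots of Mouse_628 and to -0.055 with library sizes alone. Ptgs1 reversed to -0.45 with the top 10% of spots, -0.20 without hypoxia-rich and -0.0031 without hypoxia-poor spots of Mouse_628, and -0.074 with library sizes alone. Without hypoxia-poor spots of Mouse_628 Ptgis was 1.22 and Pla2g4a -0.27, and Pla2g4a was -0.11 with library sizes alone. Crossing the mouse numbers, added after seeing the data, gave 2565 and 456 calls in lung and in tumour-rich lung spots against primary tumour. Of 20 correlations with the most alike gene, 14 moved with tile size or pseudocount. The causes of these moves were not tested. On leaving out 1 sum of the hypoxia comparison Ptgs1 reached 0.72, Alox5 1.04 and Pla2g4a 0.82 at the highest and Ptgis -1.10 at the lowest. Background limits Hpgd and Alox15 in both primary tumours and Ptgis in that of Mouse_628, where their levels were near that of the receptor genes.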
